A study of Mus musculus with 3 samples.

Results

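Medullary thymic epithelial cells with high Ccl21a were examined in single-cell RNA-seq of the CD45- stroma of aged thymus. A barcode was counted as a Ccl21a-high cell if it held more than 1000 genes and less than 20% mitochondrial UMIs (unique molecular identifiers, 1 per captured RNA molecule), at least 10 UMIs of Ccl21a, at least 3 of Krt5 and Krt14 together and at least 1 of Epcam. It also had to hold 0 UMIs of Aire, Psmb11, Pecam1 and Pdgfra and at most 1 of Mki67 and Top2a together. This rule, which reads measured values, found 191 cells among 14956 barcodes that passed the quality limits and 17677 barcodes in all. They came from 3 libraries of untreated 20-month-old C57BL/6 mice, with 29 cells in the Foxn1Lin female library, 64 in the Foxn1Lin male library and 98 in the wild type male library.

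Foxn1Lin mice carry Cre recombinase driven by Foxn1 and a tdTomato reporter behind a loxP-flanked stop in the Rosa26 locus, so a cell keeps the reporter once it or an ancestor has expressed Cre. The wild type mice carry no reporter. Each library pooled the thymi of several mice and each group had 1 library, so genotype, sex and library cannot be told apart, and no test was made between libraries. The protocol text speaks of female mice for every library, against the male label of the other two, and one field describes the wild type cells as CD45-PECAM1+ although epithelial cells were present. Where 3 values stand together they belong to the Foxn1Lin female, the Foxn1Lin male and the wild type library, in this order. Levels are in CPM, the summed UMIs of a gene scaled to a total of 1000000 UMIs in the same cells.

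The medulla is the inner zone of the thymus, where newly selected T cells complete their maturation and are tested against self antigens. Its epithelium holds immature cells of a basal type, with keratins 5 and 14, which secrete the chemokine Ccl21a and draw CCR7-bearing thymocytes from the cortex, and mature cells in which Aire drives the display of tissue-restricted antigens. Mature medullary cells lose much of the basal program, and some go on to resemble cells of peripheral tissues, the mimetic cells.

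Ccl21a lies on mouse chromosome 4 (GRCm38, chr4:42772860-42773993 in GENCODE, minus strand) among close copies of itself. The stretch that ends at the start of the gene in RefSeq, which lies slightly inside the GENCODE limits, is shown beside that of its annotated copy Ccl21d because the 3 libraries count nearly all Ccl21 UMIs in the Ccl21a row. Both are from RefSeq on GRCm38.p6 and are written in the direction of transcription, Ccl21a from chr4:42773992-42774241 (minus strand) and Ccl21d from chr4:41903363-41903612 (plus strand), with the single base that differs in capitals.
Ccl21a: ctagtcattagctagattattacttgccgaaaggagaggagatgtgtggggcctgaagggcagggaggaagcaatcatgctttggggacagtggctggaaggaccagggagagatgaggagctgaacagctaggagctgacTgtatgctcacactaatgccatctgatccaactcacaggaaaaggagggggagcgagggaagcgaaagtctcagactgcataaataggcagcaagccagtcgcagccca
Ccl21d: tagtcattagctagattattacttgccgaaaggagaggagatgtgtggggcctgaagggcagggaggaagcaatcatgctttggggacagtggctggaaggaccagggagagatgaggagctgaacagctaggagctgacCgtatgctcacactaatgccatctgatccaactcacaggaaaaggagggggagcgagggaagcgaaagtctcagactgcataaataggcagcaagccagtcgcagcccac
Each stretch is 250 bases long, 249 bases aligned between them and 1 differed, an identity of 99.6%. The annotated transcripts of Ccl21a and Ccl21b, of 870 and 402 bases, differed in 2 of 402 aligned bases. In the Ccl21a-high cells the Ccl21a row held 2859, 9396 and 9257 UMIs and no other row with a Ccl21 name held more than 1. No row bore the name Ccl21d, and copies under other names were not looked up. Levels of Ccl21a here thus stand for the locus, since reads from near-identical copies could be assigned to either.

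The genes of the rule are given as a description only. Ccl21a stood at 8459, 8825 and 6072 CPM in the Ccl21a-high cells and at 646, 422 and 324 in the other barcodes with at least 2 Epcam UMIs (571, 438 and 1085 barcodes, called other Epcam barcodes). Empty droplets, which hold free RNA of the suspension, had 432, 426 and 238, near the level of the other Epcam barcodes. Within the 29, 64 and 98 cells, the lowest, median and highest cell had 16, 69 and 369 Ccl21a UMIs in the Foxn1Lin female library, 12, 116 and 692 in the Foxn1Lin male library and 10, 72 and 585 in the wild type library, so that the ranges overlapped almost fully. Krt5, a basal keratin, was at 1648, 1210 and 1467 CPM and its partner Krt14 at 1624, 933 and 530, against 189, 268 and 307 and 128, 178 and 113 in the other Epcam barcodes.

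Few barcodes lay near the limit of 10 Ccl21a UMIs. Over all libraries, 20 barcodes that met the other terms had 5 to 9 Ccl21a UMIs and lay just outside it, and 8 cells had 10 to 14 and lay just inside it, while 126 of the 191 cells had at least 50. The barcodes just outside had Krt5 at 1097 and Ly6a at 2279 CPM, and the cells just inside had 659 and 895. A minimum of 5 UMIs gave 34, 70 and 107 cells, and a minimum of 20 gave 28, 62 and 87.

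The Ccl21a-high cells made up 4.83% of Epcam barcodes in the Foxn1Lin female library (exact 95% binomial interval 3.26 to 6.87%), 12.7% in the Foxn1Lin male library (9.96 to 16%) and 8.28% in the wild type library (6.78 to 10%). These intervals cover counting error only. The share was lowest in the Foxn1Lin female library, which also had the lowest median depth among these cells (9078 UMIs, against 14220.5 and 12372.5) and the lowest sequencing saturation (52.1%, against 81.0% and 72.8%), and the rule needs a fixed number of UMIs. The part of depth in this order was not tested. In this library 26.5% of all UMIs lay outside called barcodes, against 12.9% and 9.46% in the other libraries. No barcode of a Ccl21a-high cell occurred in another library.

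The label was checked with markers that the rule did not use. Itgb4, the integrin subunit that anchors basal epithelium through hemidesmosomes, was at 172, 103 and 146 CPM, against 55.1, 71.7 and 79.6 in the other Epcam barcodes. It was higher in the Ccl21a-high cells of every library (log2 fold change 1.05 ± 0.23 (SE), adjusted p = 0.00915, edgeR quasi-likelihood test with the library as block and Benjamini-Hochberg adjustment, as for all adjusted p-values here). UMIs of Itgb4 were found in 20 of 29, 45 of 64 and 78 of 98 cells. Its partner Itga6 was at 669, 302 and 698 CPM, against 247, 273 and 350, with a change of 0.93 ± 0.25 on the log2 scale (edgeR adjusted p = 0.0254, and 0.146 without the Foxn1Lin female library).

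Ccl11, the eosinophil chemokine eotaxin (chr11:82057823-82062955, plus strand), was at 1000, 305 and 1174 CPM in the Ccl21a-high cells. The other Epcam barcodes had 42.5, 56.8 and 121, so that the groups did not overlap and the log2 fold change was 3.48 ± 0.35 (edgeR adjusted p = 0.00012). Fibroblast barcodes had 538, 1331 and 642 CPM and empty droplets 153, 416 and 231, so Ccl11 was not particular to epithelium in these libraries. Of the Ccl21a-high cells, 19 of 29, 22 of 64 and 68 of 98 held a Ccl11 UMI, and the highest cell held 51, 71 and 237. With every cell thinned to 2000 UMIs, 58.6%, 20.3% and 48% of the Ccl21a-high cells held a Ccl11 UMI, against 4.9%, 6.18% and 8.8% of other Epcam barcodes and 51.2%, 72.1% and 56.8% of fibroblast barcodes. The fibroblast markers of the list, by contrast, summed to 163, 38.5 and 91.2 CPM in the Ccl21a-high cells, 254, 76.2 and 225 in the other Epcam barcodes and 5515, 4760 and 6391 in fibroblast barcodes.

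Ly6a, the surface antigen Sca-1 and a marker of immature medullary cells, was at 1429, 1618 and 1627 CPM, against 477, 1065 and 1283 (log2 fold change 0.90 ± 0.25, edgeR adjusted p = 0.0341). This call was lost without the Foxn1Lin female library (adjusted p = 0.21) and without the Foxn1Lin male library (0.0851). Of the 4 markers Itgb4, Itga6, Ccl11 and Ly6a, all 4 had a UMI in 15 of 29, 16 of 64 and 51 of 98 cells, and none in 0, 2 and 0 cells. The 269 barcodes that met the other terms of the rule with 0 Ccl21a UMIs had Itgb4 at 104 and Ly6a at 2135 CPM over all libraries, against 138 and 1635 in the cells with at least 50 Ccl21a UMIs. Both markers were thus also found at such levels without Ccl21a UMIs. Ccl11 was at 113 in those barcodes, against 873.

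**Figure D1:**
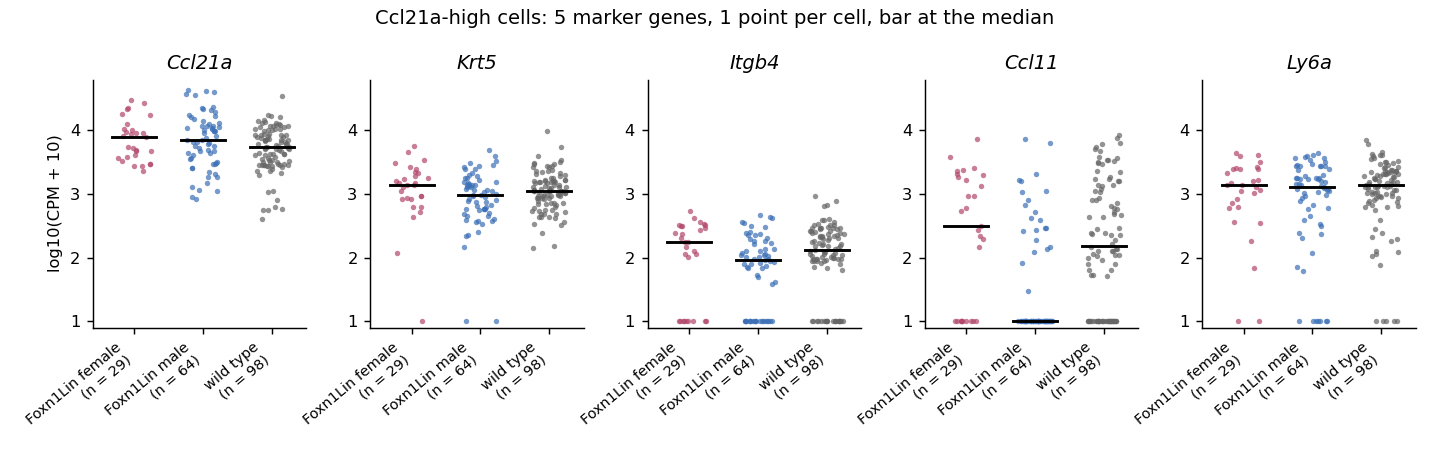
Levels of 5 marker genes in each Ccl21a-high cell of the Foxn1Lin female (n = 29), Foxn1Lin male (n = 64) and wild type (n = 98) libraries, as log10 of CPM plus 10 (vertical axis); each point is a cell and the bar is the median of cells. Ccl21a and Krt5 were used to choose the cells. Ccl11 splits the cells, with a band at 0 that includes the median cell of the Foxn1Lin male library.

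Cells with a Ccl11 UMI differed from those without in other genes, as a description chosen after the values were seen. Krt14 was at 1832, 1204 and 593 CPM in cells with Ccl11 and at 1170, 760 and 298 in those without. Sult5a1, a sulfotransferase, was at 185, 106 and 324, against 56.6, 66.1 and 163, and the zinc finger gene Zmat4 at 185, 203 and 476, against 94.4, 10.8 and 187. These 3 genes were higher in the cells with Ccl11 in each library, as were Krt5, Ly6a, Ccl19, C3, Mill1 and Vit. Krt14 and Krt5 are genes of the rule. Igfbp5, a binding protein of insulin-like growth factors, had the opposite order, with 81.9, 762 and 1988 CPM in cells with Ccl11 and 189, 1161 and 3754 in those without. So did the basal factor gene Trp63, with 125, 253 and 400, against 151, 286 and 522. Col3a1, a fibroblast collagen, was also higher with Ccl11 in each library (99.1, 21.7 and 85.9, against 47.2, 13.8 and 30.7), while Col1a1 and Dcn kept no order, and fibroblast barcodes had Sult5a1 at 91.5, 45.2 and 58.5. The part of fibroblast RNA was not tested. Ccl21a itself did not keep one order (8737, 10134 and 5889, against 7851, 7991 and 6744). Median depths were 8566, 15663.5 and 13614 UMIs with Ccl11 and 9368, 12777.5 and 10583.5 without, and their part in these differences was not tested.

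Against the other Epcam barcodes, 647 of 15657 genes tested were higher in the Ccl21a-high cells (4.13%) and 1918 were lower (12.3%), beside a median log2 fold change over all genes of -0.09 (-0.05 against Aire cells and 0.01 against Cldn3 Plet1 cells, described next). The cells were chosen from the same counts, so genes that vary with those of the rule had a part in the choice. The 3 libraries were the replicates of each comparison. 2 sets of cells nearest in kind were also compared: Aire cells, with at least 2 Aire UMIs (74, 58 and 150 cells), which are mature medullary cells, and Cldn3 Plet1 cells, with at least 3 UMIs of these genes together (46, 58 and 156 cells), genes that mark an age-associated epithelial population. Against Aire cells 1770 of 11749 genes were higher (15.1%) and 2719 lower (23.1%), and against Cldn3 Plet1 cells 682 of 10569 were higher (6.45%) and 1074 lower (10.2%). These comparisons share the Ccl21a-high cells, and both sets, apart from barcodes with a single Epcam UMI, are among the other Epcam barcodes. Cldn3 Plet1 cells also carried genes of mimetic cells, with 13 of 15 tested higher there than in the Ccl21a-high cells. The set is thus named by its 2 genes alone.

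Mill1, an MHC class I-like gene (chr7:18245347-18266092, plus strand), was at 107, 143 and 232 CPM, against 11.4, 14.1 and 18. It had the largest increase over the other Epcam barcodes, a log2 fold change of 3.51 ± 0.21 (edgeR adjusted p = 6.18e-06), and rose also against Aire cells (3.80 ± 0.27, 8.89e-05) and Cldn3 Plet1 cells (3.34 ± 0.29, 0.000124). Fibroblast, endothelial and empty-droplet levels of Mill1 were all under 10 CPM. Gpx3, a secreted glutathione peroxidase (chr11:54902453-54910377, plus strand), was at 882, 647 and 455, against 87.4, 108 and 86.1 (2.83 ± 0.23, adjusted p = 3.95e-05 by edgeR). Gpx3 stood at 855, 311 and 297 in fibroblast barcodes and 259, 222 and 195 in empty droplets.

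Zmat4 was at 157, 85.5 and 415 CPM, against 16.9, 19.3 and 47.8 (log2 fold change 2.90 ± 0.24, edgeR adjusted p = 4.66e-05). Sult5a1 was at 145, 81.7 and 289, against 12, 18.2 and 39.7 (2.91 ± 0.26, edgeR adjusted p = 6.2e-05), and Vit, an extracellular matrix protein, at 101, 41.3 and 134, against 11.1, 11.1 and 14.3 (2.87 ± 0.29, edgeR adjusted p = 0.00012). In all 3 genes the Foxn1Lin male library was the lowest of the Ccl21a-high cells and still lay above every library of the other Epcam barcodes. The sodium channel gene Scn7a was at 23.7, 241 and 308 CPM, against 9.89, 36.1 and 33.9 (2.74 ± 0.30, edgeR adjusted p = 0.00017), so the Foxn1Lin female library was low and within the range of the other barcodes. Fibroblast barcodes had Vit at 209, 32.2 and 36.2 and Scn7a at 191, 142 and 145, above the Ccl21a-high cells of the Foxn1Lin female library in both. Adamts19, Map3k7cl, Vsnl1, Chil3, the predicted gene Gm8113 and the Wnt receptor Fzd2 were also among the 15 largest, with log2 fold changes from 2.54 to 3.07. In Chil3, 53.1% of the wild type UMIs came from 1 cell, and in Adamts19 11 of 14 Foxn1Lin female UMIs did. Sprr2a3, a cornified-envelope gene, had 2.60 ± 0.59 (edgeR adjusted p = 0.0118), and 12 of its 16 Foxn1Lin female UMIs came from 1 cell. The heparan sulfate enzyme gene Hs3st4, at 5.92, 11.3 and 47.9, against 3.47, 3.95 and 1.4, rested on the wild type library (3.05 ± 0.77, edgeR adjusted p = 0.0207, and 0.364 without it).

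The 15 genes with the largest decrease had no UMI in any of the 191 cells, and their folds are given as lower bounds, from 3 counts over all Ccl21a-high cells. Calca, the precursor of calcitonin, was at 47.5, 55.2 and 50.9 CPM in the other Epcam barcodes and was at least 50.8-fold lower in the Ccl21a-high cells. Prg2, an eosinophil granule protein, was at 93.1, 138 and 34.9 there and at least 77.2-fold lower. Cldn14, a claudin, was at 13.3, 36.5 and 57.6 there and at least 43.7-fold lower. The gut genes Fabp1 and Krt20 were at least 37.2-fold and 35.8-fold lower, and the metallothioneins Mt3 and Mt4 at least 39.7-fold and 33.3-fold.

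**Figure D2:**
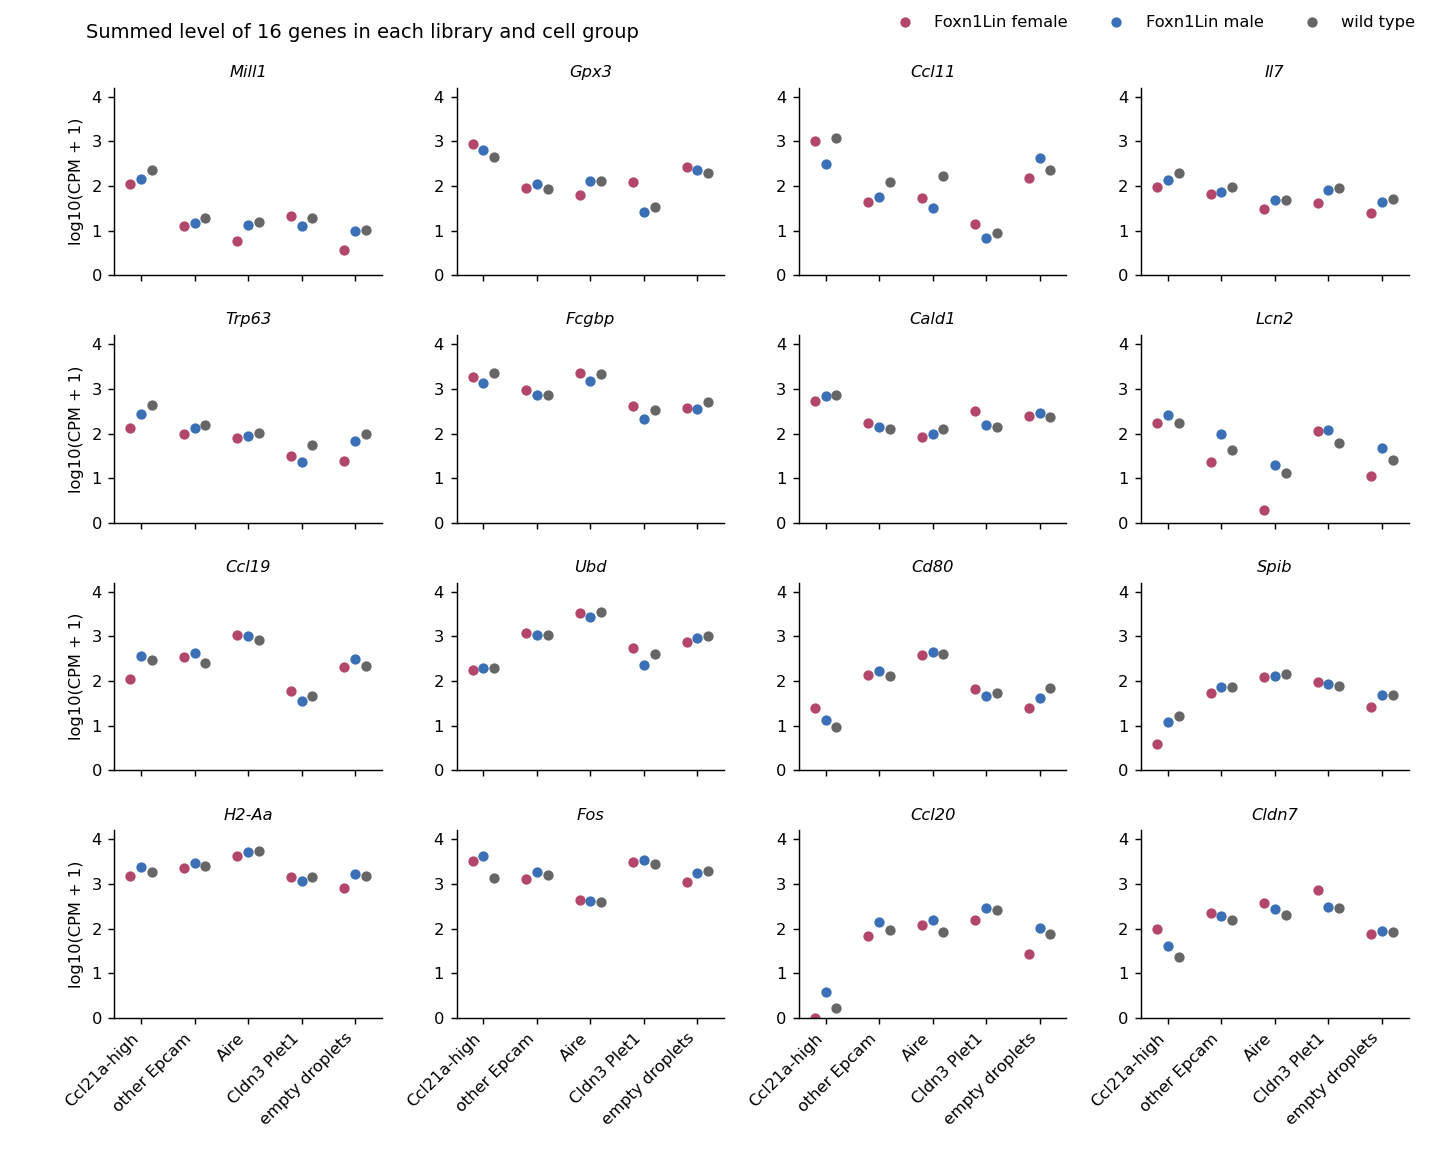
Summed level of 16 genes as log10 of CPM plus 1 (vertical axis) in Ccl21a-high cells, other Epcam barcodes, Aire cells, Cldn3 Plet1 cells and empty droplets; each point is a library. In each library Mill1 and Cald1 are highest in the Ccl21a-high cells and Ubd and Ccl20 lowest. Ccl11 is highest and Cd80 lowest there among the cell groups, but empty droplets of the Foxn1Lin male library have more Ccl11 (416 against 305 CPM) and those of the Foxn1Lin female library slightly less Cd80 (23.3 against 23.7).

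Among 15 chemokines, which guide lymphocytes and their precursors, 2 were higher in the Ccl21a-high cells than in the other Epcam barcodes and 6 were lower, with a median log2 fold change of -0.44. Ccl11 led the rise. Cxcl14, at 5.92, 10.3 and 19.7 CPM, against 5.37, 1.91 and 7.35, was near the limit (1.56, edgeR adjusted p = 0.0499, and 0.292 and 0.271 without the Foxn1Lin male and without the wild type library). Ccl25, the ligand of CCR9 that brings progenitors to the thymus, fell from 1210, 171 and 612 to 44.4, 23.5 and 21.6 (-4.11 ± 0.36, edgeR adjusted p = 5.63e-05), and Ccl20, the ligand of CCR6, from 66.5, 138 and 91.3 to 0, 2.82 and 0.656 (-6.21, 7.99e-06). The groups did not overlap for either gene.

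Ccl19, the other ligand of CCR7, was at 112, 363 and 300 CPM in the Ccl21a-high cells. It did not pass the test against the other Epcam barcodes, which had 350, 430 and 258 (log2 fold change -0.40 ± 0.30, edgeR adjusted p = 0.44). Aire cells had 1078, 1010 and 811, above the Ccl21a-high cells (-2.07 ± 0.36, adjusted p = 0.00274), and Cldn3 Plet1 cells 58.2, 35.3 and 44.7, below them (2.49 ± 0.38, adjusted p = 0.00181). Cxcl12, the ligand of CXCR4, was at 79.9, 86.4 and 110, against 13.4, 4.14 and 20.3 in Aire cells (2.82, edgeR adjusted p = 0.000804). Against all other Epcam barcodes the change of Cxcl12 was -1.03 (edgeR adjusted p = 0.0489, and 0.203 without the Foxn1Lin female library), and it turned to 0.46 when barcodes with cortical genes (a Psmb11 UMI or at least 3 of Prss16) were left out.

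Of 12 thymopoietic factors, which feed developing T cells, Il7 was higher and 4 were lower (median -0.62). Il7, the growth factor of early thymocytes, was at 91.7, 133 and 191 CPM, against 64.5, 72 and 91.5. The log2 fold change was 0.92 ± 0.19 (edgeR adjusted p = 0.00813), and it was 1.64 ± 0.22 against Aire cells (0.000918) and 0.97 ± 0.21 against Cldn3 Plet1 cells (0.0128, and 0.113 without the wild type library). The ranges of Il7 met, since the Foxn1Lin female cells were level with the wild type other Epcam barcodes, but it was higher within each library. Kitl, the ligand of the receptor Kit, fell from 94.4, 77.9 and 84.3 to 50.3, 36.6 and 33.5 (-1.07 ± 0.21, edgeR adjusted p = 0.00539). Il33 and Il15 were lower as well, though Il15 lost the call without the Foxn1Lin male or the wild type library. The Notch ligand Dll4 was at 0, 1.88 and 1.31, against 16.5, 7.78 and 14.1 (-3.05, edgeR adjusted p = 0.00729, and 0.0666 without the wild type library).

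Foxn1, the transcription factor that specifies thymic epithelium and drives the Cre of the lineage trace, was at 41.4, 44.1 and 43.3 CPM. These values lay below all 3 libraries of the Aire cells (126, 117 and 135, log2 fold change -1.65 ± 0.22, edgeR adjusted p = 0.000781). Cldn3 Plet1 cells had 13.2, 22.6 and 20, below the Ccl21a-high cells (1.15 ± 0.29, edgeR adjusted p = 0.0219, and 0.0935 and 0.144 without the Foxn1Lin male and without the wild type library). The change against all other Epcam barcodes was -0.62 ± 0.22 and did not pass (adjusted p = 0.0813).

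Basal adhesion genes hold the epithelium to its basement membrane. Of 20 genes, 6 were higher (Bcam, Cd151, Itga6, Itgb4, Lamb3 and Perp) and Itga2 was lower, and the median log2 fold change was 0.54. Against Aire cells 16 of 20 were higher and 2 lower (median 1.19; none lower without the wild type library), and against Cldn3 Plet1 cells 5 of 19 were higher and none lower (median 0.57), or 2 of 19 higher without the wild type library, where Itgb4, Lama3 and Dst lost the call. Bcam, a laminin receptor, was at 124, 116 and 95.8 CPM, against 38.1, 53.5 and 58.5 (1.20 ± 0.22, edgeR adjusted p = 0.00388). Lamb3, a chain of laminin 332, was at 82.8, 89.2 and 85.3, against 52.7, 36.9 and 47.5 (1.01 ± 0.21, edgeR adjusted p = 0.00683), and against 10.5, 10.8 and 13.4 in Aire cells (2.76, 0.0002). The groups did not overlap for either gene. The calls of Perp and Cd151 were lost without the Foxn1Lin male library (adjusted p = 0.0535 and 0.176), that of Perp also without the Foxn1Lin female library (0.0716), and that of Itga2 without the Foxn1Lin male (0.0814) or wild type library (0.215). Cdh1, the E-cadherin of all epithelia, was at 618, 680 and 809, against 440, 649 and 694 (0.32, edgeR adjusted p = 0.319).

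Of 18 further genes of basal epithelial identity, 7 were higher than in the other Epcam barcodes (Klf4, Krt15, Krt17, Krt7, Ly6a, Sox4 and Trp63) and none lower (median 0.43). Trp63, the p63 factor of basal epithelia (chr16:25683763-25892102, plus strand), was at 133, 273 and 426 CPM, against 96.4, 129 and 152 (1.12 ± 0.22, edgeR adjusted p = 0.00564). It was at 30.1, 22.6 and 54 in Cldn3 Plet1 cells, where the difference was largest (2.98 ± 0.28, adjusted p = 0.000182). Krt15, a basal keratin, was at 192, 31 and 22.3, against 16.7, 18.7 and 5.88 (2.17 ± 0.44, edgeR adjusted p = 0.00633), highest in the Foxn1Lin female library. Few cells held it, 7 of 29, 7 of 64 and 10 of 98, and 1 cell held 44.6% of the Krt15 UMIs of the Foxn1Lin female and 55.9% of those of the wild type library. Sox4 was at 609, 541 and 690, against 270, 310 and 342 (1.06 ± 0.19, edgeR adjusted p = 0.00323), with no overlap. The calls of Krt17 and Klf4 were lost without the Foxn1Lin female (adjusted p = 0.0547 and 0.14) or Foxn1Lin male library (0.229 and 0.095), and that of Krt7 without the Foxn1Lin male library.

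The comparison with Cldn3 Plet1 cells split the keratins. Of the 18 genes of basal identity, 6 were higher in the Ccl21a-high cells, Krt15 and Krt17 among them, and 4 lower. The call of Krt17 was lost without the Foxn1Lin male library (1.26, edgeR adjusted p = 0.0795). The simple-epithelium keratins Krt8, Krt18 and Krt19 were lower in the Ccl21a-high cells, by log2 fold changes of -1.28, -1.20 and -1.32 (edgeR adjusted p = 0.0106, 0.0222 and 0.00706). Krt8 was at 1278, 1968 and 910 CPM, against 3416, 3645 and 2680 in Cldn3 Plet1 cells, with no overlap. These calls each rested on 1 library or more: without the Foxn1Lin male library the adjusted p was 0.102 for Krt8 and 0.23 for Krt18, and without the wild type library 0.0938 for Krt18 and 0.0656 for Krt19. Against the other Epcam barcodes Krt8 did not pass (-0.32, adjusted p = 0.412).

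Pdpn, a glycoprotein of immature medullary epithelium and of lymphoid stroma, was at 148, 332 and 180, against 8.62, 23.2 and 12.2 in Aire cells (3.81 ± 0.23, edgeR adjusted p = 6.41e-05). Among the genes with the largest increase over Aire cells, Gas1, a surface protein of the Hedgehog pathway, was at 423, 659 and 596, against 4.79, 7.45 and 16.7 (5.71 ± 0.34, edgeR adjusted p = 6.04e-05), and the host gene Mir100hg at 660, 553 and 1193, against 6.71, 29 and 62.1 (4.67, 0.000167). Fat3, Scn1a and Clca2 lay between these, with 4.74 to 4.85. In all of these the lowest Ccl21a-high library lay above the highest Aire library.

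Of 15 genes of squamous differentiation, 1 was higher and 6 were lower (median -1.74). Of the 14 still tested without the Foxn1Lin male library 4 were lower, and of the 14 without the wild type library 2 were lower and 2 higher. Krtdap, a protein of differentiating keratinocytes, was higher, at 287, 88.3 and 36.7, against 103, 17.7 and 27.7 (1.47 ± 0.30, edgeR adjusted p = 0.00721), and lost the call when comparison barcodes with cortical genes were left out (1.01, adjusted p = 0.0514). Sbsn, a suprabasal protein, was at 11.8, 17.8 and 9.18, against 60.8, 46.6 and 36.3 (-1.74, edgeR adjusted p = 0.00187).

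**Figure D3:**
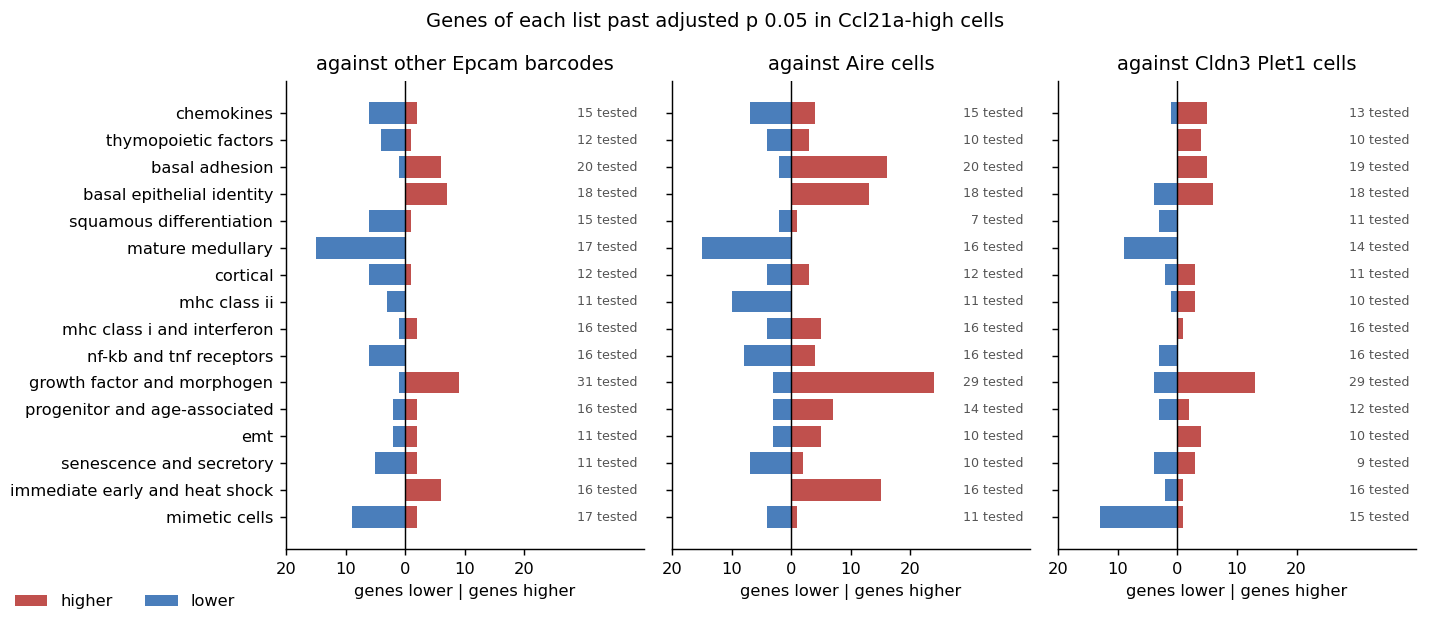
Number of genes of each list that were higher (right, red) or lower (left, blue) in Ccl21a-high cells past an adjusted p of 0.05 (edgeR quasi-likelihood), against other Epcam barcodes, Aire cells and Cldn3 Plet1 cells; the number tested stands at the right of each row. Of 17 mature medullary genes, 15 are lower against other Epcam barcodes, and of 29 growth factor and morphogen genes tested against Aire cells, 24 are higher.

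Mature medullary genes were low, and the rule itself had asked for cells without Aire. Of 17 genes, 15 were lower than in the other Epcam barcodes and none higher (median -2.68), against a background of 12.3% of genes lower. Ubd, a ubiquitin-like protein, fell from 1221, 1050 and 1058 to 175, 193 and 197 CPM (-2.48 ± 0.21, edgeR adjusted p = 4.51e-05). Cd80 and Cd40, the costimulatory molecules of mature cells, were at 23.7, 12.2 and 8.53 and at 5.92, 9.39 and 15.1, against 133, 168 and 131 and 82.2, 68.8 and 79.1 (-3.47 and -2.68, edgeR adjusted p = 4.66e-05 and 0.000143). Fezf2, a second driver of self-antigen expression, kept 88.8, 43.2 and 41.3, against 151, 188 and 150 (-1.57 ± 0.26, edgeR adjusted p = 0.00211). Cd86 had no UMI in the Ccl21a-high cells and was at least 15.8-fold lower.

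Tnfrsf11a, the receptor RANK through which the medulla matures, differed between libraries, at 23.7, 64.8 and 186, against 152, 179 and 199, and did not pass (-1.05, edgeR adjusted p = 0.0649). Its decoy Tnfrsf11b was at 0, 4.7 and 13.1, against 67.1, 114 and 95.5 (-3.60, edgeR adjusted p = 0.000179). Of 16 genes of the NF-kB pathway and its TNF-family receptors, 6 were lower (Birc3, Nfkbia, Rel, Relb, Traf1 and Traf3) and none higher (median -0.37). Traf1 was at 5.92, 14.1 and 10.5, against 85.8, 90.7 and 58.4 (-2.69, edgeR adjusted p = 0.000132), and Relb, the factor of the alternative pathway, at 53.3, 125 and 106, against 219, 205 and 185 (-1.0, edgeR adjusted p = 0.0182, and 0.0587 without the Foxn1Lin female library). Of the 6 genes, Traf1 alone kept its call whichever library was left out. Against Aire cells the list divided, with 4 of 16 higher and 8 lower (median -0.75), beside 15.1% and 23.1% of all genes. The receptors Ltbr (26.6, 35.7 and 34.1, against 9.58, 9.1 and 11.7, log2 fold change 1.56, edgeR adjusted p = 0.00659) and Tnfrsf12a (3.30, adjusted p = 0.000882) were among the higher.

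Most antigen presentation genes did not pass the test against the other Epcam barcodes. Of 11 MHC class II genes, 3 were lower (Ctss, H2-Oa and H2-Ob) and none higher (median -0.33), beside 12.3% of all genes lower. The class II chain gene H2-Aa had levels of 1533, 2447 and 1894 CPM here and of 2244, 2914 and 2481 in the other Epcam barcodes (-0.33 ± 0.20, edgeR adjusted p = 0.339). It was lower than in Aire cells, which had 4198, 5207 and 5339 (-1.45 ± 0.17, adjusted p = 0.000498), as were 10 of the 11 genes of the list (median -1.45). H2-Oa, which restrains peptide exchange, was at 53.3, 40.4 and 40, against 151, 140 and 119 (-1.56 ± 0.20, edgeR adjusted p = 0.00044), with no overlap. Of 16 class I and interferon genes, Irf7 and Bst2 were higher and the immunoproteasome subunit Psmb10 was lower (median 0.17), beside 4.13% and 12.3% of all genes. Irf7, a factor of the type I interferon response, was at 101, 119 and 121, against 36.9, 56.2 and 61.7 (1.20 ± 0.19, edgeR adjusted p = 0.0018), and the call of Bst2 was lost without the Foxn1Lin male library (adjusted p = 0.0716).

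Growth factor and morphogen genes were the longest list. Of 31 genes, 9 were higher than in the other Epcam barcodes (Dkk3, Egfr, Fgfr2, Fst, Igfbp3, Igfbp4, Jag1, Notch2 and Sdc1) and Bmp2 was lower (median 0.54). Against Aire cells 24 of 29 were higher and 3 lower (median 1.89), and against Cldn3 Plet1 cells 13 were higher and 4 lower (median 0.84), which became 8 and 3 without the Foxn1Lin male library and 4 and 2 without the wild type library. Fst, follistatin, which binds activins, was at 56.2, 260 and 165 CPM, against 20.3, 123 and 82.8 (1.20 ± 0.19, edgeR adjusted p = 0.00188), and at 0.958, 5.79 and 9.56 in Aire cells (4.62 ± 0.36, 0.00011). The level of Fst moved with the library in both groups, lowest in the Foxn1Lin female.

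Fgfr2, whose IIIb form is the epithelial receptor of Fgf7, was at 260, 298 and 351, against 181, 198 and 148 (0.86 ± 0.20, edgeR adjusted p = 0.0146), and Egfr at 346, 321 and 701, against 204, 245 and 265 (0.92 ± 0.22, edgeR adjusted p = 0.0165). Both were higher in every library, without overlap, but past the threshold only with the wild type library (adjusted p = 0.0764 and 0.0746 without it). Jag1, a Notch ligand, was at 59.2, 76.1 and 144, against 26.4, 44.2 and 67.7 (1.06, edgeR adjusted p = 0.00436). Sdc1, a heparan sulfate proteoglycan, was at 109, 74.2 and 100, against 45.2, 40.3 and 44.6 (1.17, edgeR adjusted p = 0.00229), and Dkk3, a member of the Dickkopf family, at 50.3, 10.3 and 15.1, against 4.21, 2.03 and 5.25 (2.49 ± 0.48, edgeR adjusted p = 0.00518). These groups did not overlap for Sdc1 and Dkk3, and Jag1 overlapped between libraries. The calls of Notch2 and Igfbp3 were lost without the Foxn1Lin male library (adjusted p = 0.0626 and 0.0723), and that of Igfbp4 without the Foxn1Lin female or the Foxn1Lin male library.

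Of 16 genes that mark progenitors or age-associated epithelium, 2 were higher (Cald1 and Tpm2) and 2 lower (Cldn7 and Lgals1), with a median of -0.33. The share lower was near that of all genes (12.3%, against 4.13% higher), and 4 were lower without the Foxn1Lin female library. Both that were higher are actin-binding. Cald1, caldesmon, was at 536, 692 and 712 CPM, against 171, 142 and 124 (2.23 ± 0.22, edgeR adjusted p = 0.000104), and Tpm2, a tropomyosin, at 299, 531 and 132, against 88.1, 158 and 57.9 (1.63 ± 0.20, edgeR adjusted p = 0.000323). Cald1 had no overlap between groups and Tpm2 did. Of 6 mural cell markers, Tagln, also actin-binding, was higher (1.23, edgeR adjusted p = 0.00583) and the smooth muscle myosin Myh11 was lower, and the list summed to 396, 343 and 540 CPM, against 242, 346 and 364. The call of Lgals1 was lost without the Foxn1Lin female library. The claudin Cldn7 was at 97.6, 39.4 and 21.6, against 227, 194 and 151 (-2.06, edgeR adjusted p = 0.000659).

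Of 11 genes of epithelial-mesenchymal transition that were tested, Sparc and Tgfbi were higher and S100a4 and Vim lower (median -0.12). Of all genes, 4.13% were higher and 12.3% lower. Tgfbi, a matrix protein, was at 23.7, 73.3 and 57.7, against 7.89, 7.78 and 12.6 (2.52 ± 0.32, edgeR adjusted p = 0.000415). Vim, vimentin, was at 32.5, 40.4 and 19, against 207, 179 and 111 (-2.35 ± 0.22, edgeR adjusted p = 7.55e-05). The call of Sparc was lost without the Foxn1Lin male or the wild type library, and 4 genes were higher without the Foxn1Lin female library. Dcn, a matrix proteoglycan best known from fibroblasts, was at 553, 196 and 136, against 611, 350 and 373 (-0.75 ± 0.25, edgeR adjusted p = 0.0619).

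Of 11 tested genes of senescence and its secretory program, 2 were higher (C3 and Lcn2) and 5 lower (Cdkn2a, Cdkn2b, Cfb, Gdf15 and Saa3), with a median of -1.85. Lcn2, lipocalin, was at 175, 254 and 171 CPM, against 22.3, 99.1 and 40.7 (2.14 ± 0.27, edgeR adjusted p = 0.000437), and C3, complement component C3, at 630, 626 and 898, against 415, 209 and 297 (1.34 ± 0.24, edgeR adjusted p = 0.003). Neither overlapped with the other Epcam barcodes. Cdkn2b, a cell cycle inhibitor, was lower (-1.88, edgeR adjusted p = 0.00172), and Cdkn2a was at 23.7, 4.7 and 1.31, against 32.5, 33.3 and 29.8 (-2.38, edgeR adjusted p = 0.0123). Cdkn1a, p21, was at 180, 145 and 63, against 238, 148 and 99.1 (-0.29, edgeR adjusted p = 0.384).

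Immediate early and heat shock genes, which also respond to tissue dissociation, had 6 of 16 higher (Jun, Atf3, Dusp1, Hspa1a, Hspa1b and Dnajb1), none lower and a median of 0.64. The count was 2 without the Foxn1Lin female library, 2 without the Foxn1Lin male and 10 without the wild type. Hspa1b was at 432, 833 and 976, against 196, 348 and 496 (1.19, edgeR adjusted p = 0.00165). Jun was at 5420, 4021 and 1979, against 2081, 2025 and 1781 (0.91, edgeR adjusted p = 0.0369, and 0.209 and 0.306 without the Foxn1Lin female and without the Foxn1Lin male library). Of the 6 genes, Hspa1b alone kept its call whichever library was left out. Fos was at 3343, 4290 and 1360, against 1321, 1888 and 1580 (0.84, edgeR adjusted p = 0.0823), so the wild type cells lay below their comparison and the Foxn1Lin cells above. Against Aire cells 15 of 16 were higher (median 1.77), and against Cldn3 Plet1 cells 1 was higher and 2 lower (median -0.10), near the background of 6.45% and 10.2%. Those 3 calls, Hspa1b, Btg2 and Zfp36, were each lost without the Foxn1Lin male and without the wild type library. The part of dissociation in the gene groups above was not tested.

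Of 17 genes of mimetic cells tested, 2 were higher and 9 lower (median -1.95), and 13 of 15 lower against Cldn3 Plet1 cells (median -2.81; 8 of 12 without the Foxn1Lin male and 6 of 9 without the wild type library). Gp2, of microfold-like cells, was at 0, 0 and 1.97, against 90.9, 24.7 and 129 (-6.35, edgeR adjusted p = 1.74e-05), and Insm1, of neuroendocrine-like cells, at 2.96, 0 and 4.59, against 32.7, 102 and 85.4 (-4.91, edgeR adjusted p = 0.000132). Fcgbp, a mucin-like protein listed with these cells, went the other way at 1799, 1368 and 2219, against 947, 717 and 742 (1.21 ± 0.22, edgeR adjusted p = 0.00346). Aire cells had 2232, 1505 and 2110, and the change against them was -0.22. The call of Dclk1, a tuft cell gene, was lost without the Foxn1Lin male library (0.96, edgeR adjusted p = 0.0279, and 0.278 without it).

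Of 12 cortical genes, 6 were lower, Scx was higher and the median was -0.98. Scx, scleraxis, was at 20.7, 34.8 and 35.4, against 8.84, 7.42 and 5.33 (2.27 ± 0.35, edgeR adjusted p = 0.00138). Prss16, the thymus-specific serine protease, was at 35.5, 37.6 and 20.3, against 1184, 119 and 527 (-3.66, edgeR adjusted p = 0.000953), and the rule had asked for no Psmb11. When comparison barcodes with cortical genes were left out, Ctsl turned to 1.26 (edgeR adjusted p = 0.00239). Isg20 (-0.54, edgeR adjusted p = 0.223), Ly75 (-0.48, 0.131) and Tbata (-0.27, 0.829), all among the 6 lower genes, then lost the call. That filter uses Prss16 itself in the comparison barcodes alone, so it says nothing of Prss16. Pax1, a pharyngeal pouch factor, was at 115, 184 and 195, against 20.1, 27.3 and 36.4 in Aire cells (2.46, edgeR adjusted p = 0.000169).

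Against Cldn3 Plet1 cells, the largest increases were those of Ccl11, Hs3st4, Grp, Piezo2 and Scn7a. Grp, gastrin-releasing peptide, was at 71, 188 and 58.4, against 0, 4.91 and 0.489 (5.97 ± 0.42, edgeR adjusted p = 6.39e-05), and Scn7a at 7.52, 6.87 and 5.87 in Cldn3 Plet1 cells (5.09 ± 0.49, 0.000208). Ccl7, a monocyte chemokine, was at 127, 40.4 and 108, against 5.64, 2.94 and 15.6 (3.29, edgeR adjusted p = 0.000308), and 5 of 13 chemokines tested were higher and 1 lower (median 1.08). H2-DMb2, a peptide-loading chaperone chain, was higher (2.06, edgeR adjusted p = 0.00211). The genes with the largest decrease had no UMI in the Ccl21a-high cells, such as Cldn14 (130, 181 and 174 in Cldn3 Plet1 cells) and Bmx (126, 50.1 and 85).

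Markers of other cells, apart from the mural list given above, were low but not at 0. Hematopoietic markers summed to 107, 16 and 23 CPM in the Ccl21a-high cells, with a UMI for 10, 7 and 6 of 14 genes and none for Rag1. They summed to 674, 401 and 458 in the other Epcam barcodes and to 2562, 613 and 528 in empty droplets. Endothelial markers summed to 192, 43.2 and 72.1, against 247, 84.9 and 80.5 in the other Epcam barcodes and 7116, 6249 and 6378 in endothelial barcodes. Parathyroid markers, with Gcm2 at 0, summed to 172, 13.1 and 20.3, against 2000, 4002 and 1855 in the other Epcam barcodes and 4740, 423 and 500 in empty droplets. Mesothelial markers summed to 68.1, 49.8 and 61.7, against 217, 118 and 129 in the other Epcam barcodes, with Lrrn4 and Upk1b at 0 in each library. Against the other Epcam barcodes none of these lists had a higher gene, and 10 of 14 hematopoietic, 5 of 7 fibroblast, 1 of 9 endothelial, 3 of 5 mesothelial and 2 of 3 parathyroid genes tested were lower (medians -3.95, -2.33, -1.38, -2.58 and -6.15), against 12.3% of all genes. Without the wild type library 2 of 7 fibroblast genes were lower. The endothelial gene was Cdh5, whose call was lost without the Foxn1Lin male or the wild type library (edgeR adjusted p = 0.132 and 0.171) and which turned to 0.21 without comparison barcodes that hold Pecam1 or Pdgfra. In the Ccl21a-high cells the Foxn1Lin female library had the highest sum of each of these 5 lists.

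Most Ccl21a-high cells of the Foxn1Lin libraries held UMIs of the lineage reporter. Without thinning, 28 of 29 (96.6%) and 64 of 64 (100%) held a tdTomato UMI, but so did 15.2% and 13.5% of fibroblast and 22.8% and 29.9% of endothelial barcodes, lineages that should lack it. Thinned to 2000 UMIs, 22 of 29 (75.9%, exact 95% interval 56.5 to 89.7%) and 53 of 64 (82.8%, 71.3 to 91.1%) held one, against 5.17% and 4.01% of fibroblast and 9.64% and 9.79% of endothelial barcodes. In the wild type library 0 of 98 cells did, which allows a share of up to 3.06% by a limit of 3 counts. Aire cells had 37.8% (26.8 to 49.9%) and 58.6% (44.9 to 71.4%), and Cldn3 Plet1 cells 89.1% (76.4 to 96.4%) and 96.6% (88.1 to 99.6%). The intervals of the Ccl21a-high cells did not meet those of the Aire cells in the Foxn1Lin female library and barely met in the Foxn1Lin male library (71.3% against 71.4%), and they overlapped with those of the Cldn3 Plet1 cells in both. With doublets removed and each cell thinned anew, the intervals of Ccl21a-high and Aire cells met in the Foxn1Lin female library (44.1 to 81.4% against 29.7 to 53.2%). Removal took out 1 Ccl21a-high cell there, while the positive cells went from 22 to 18, so most of this move came with the new thinning. Means over all thinnings to 2000 UMIs were 77.9% and 87.1% in the Ccl21a-high cells. They were 41.9% and 57.6% in Aire cells and 81.7% and 92.3% in Cldn3 Plet1 cells. The order against Cldn3 Plet1 cells turned with thinning to 4000 UMIs, where the Ccl21a-high cells had 96.4% and 96.9% and the Cldn3 Plet1 cells 88.6% and 94.8%, and without thinning in the Foxn1Lin male library (100% against 98.3%). Aire cells were below both under each of these settings. These are cells of 1 library each and the order was not tested over samples.

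**Figure D4:**
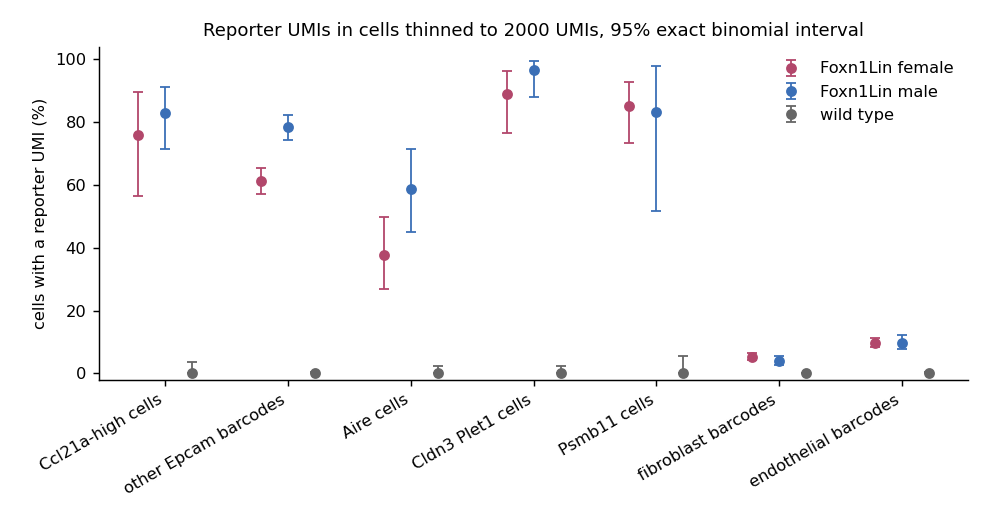
Share of cells with a tdTomato reporter UMI (vertical axis, percent) after thinning each cell to 2000 UMIs, for 7 cell groups in the 3 libraries; error bars are exact 95% binomial intervals and cover counting error only. Ccl21a-high cells (75.9% and 82.8%) stand between Aire cells (37.8% and 58.6%) and Cldn3 Plet1 cells (89.1% and 96.6%) at this depth, though not at 4000 UMIs, and the wild type cells at 0. The shares come from a single random thinning. Over all thinnings the means of the Ccl21a-high cells (77.9% and 87.1%) lay closer to those of the Cldn3 Plet1 cells (81.7% and 92.3%).

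The reporter level was ordered as the shares at 2000 UMIs, at 882 and 1386 CPM in the Ccl21a-high cells (exact Poisson intervals 784 to 988 and 1316 to 1459). Aire cells had 305 and 563, Cldn3 Plet1 cells 1336 and 2388, and empty droplets 237 and 583, so empty droplets held as much as Aire cells in the Foxn1Lin male library. Whether a lower share in Aire cells reflects fewer labelled cells or fewer reporter molecules per cell cannot be told apart with these counts.

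Between libraries, genes past a 4-fold ratio of summed levels in the Ccl21a-high cells were listed where the higher library had at least 20 UMIs. From the Foxn1Lin female to the Foxn1Lin male library, 93 of 7119 genes were higher in the female (1.31%) and 155 lower (2.18%), beside a median log2 ratio of -0.15. From the Foxn1Lin male to the wild type library, 49 of 8927 were higher in the Foxn1Lin male (0.549%) and 243 lower (2.72%), with a median of -0.22. With 1 library per group these ratios describe the libraries.

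Sema3c, a secreted semaphorin, had 302 UMIs in the Foxn1Lin female cells and 2 in the Foxn1Lin male, a log2 ratio of 8.89 (Poisson interval 7.03 to 11.95). All 29 cells held it, but the other Epcam barcodes had 982 and 7.9 CPM and empty droplets 2310 and 25.2 in these libraries, so it set the whole library apart. The predicted gene Gm11867 did the same, with 56 UMIs against 2, and 266 against 5.85 CPM in empty droplets. Grin2a, a subunit of the NMDA receptor, had 171 UMIs (506 CPM) in 14 of 29 cells against 0, at least 180-fold higher. The other Epcam barcodes, at 28.7 and 1.2 CPM, and empty droplets, at 6.85 and 1.46, differed in the same direction. Unlike Sema3c and Gm11867, it was highest in the Ccl21a-high cells.

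Nrxn3, a neurexin, had 0 UMIs in the Foxn1Lin female cells and 245 in 23 of the Foxn1Lin male cells, at least 25.9-fold lower, while the other Epcam barcodes held 61.4 and 140 CPM. Rasl11a, a small GTPase of the Ras family, had 5 and 303 UMIs (log2 ratio -4.27, interval -5.90 to -3.03). Igfbp5 had 39 and 1071 (-3.12, interval -3.62 to -2.66) and reached 2365 CPM in the wild type cells, where the other Epcam barcodes had 426, 478 and 774. The Foxn1Lin female cells were thus below their other Epcam barcodes in Igfbp5 and the cells of the other libraries above theirs. Ly6d was at 512 CPM in the Foxn1Lin female cells and 36.6 in the Foxn1Lin male (3.80, interval 3.30 to 4.35).

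Some ratios rested on a few cells. Of the 10 genes with the largest ratios in each comparison, more than 50% of the UMIs of the higher library came from 1 cell in 2 genes between the Foxn1Lin libraries, Lyz2 (88.9%) and Chil4 (76.9%), and in 6 genes between the Foxn1Lin male and wild type libraries, St18 (80.8%) among them. In some genes of the comparisons above 1 cell also held much of the level, as in Grp (12 of 24 UMIs) and Lamb3 (13 of 28) in the Foxn1Lin female library, and in what remained of Ubd (42 of 59) and Cldn7 (25 of 33) there. In the cortical gene Tbata, 230 of 282 UMIs of the Foxn1Lin female cells came from 1 cell. Piezo2, a mechanosensitive channel, had 41 UMIs in 4 cells of the Foxn1Lin female library, 1 in the Foxn1Lin male and 105 in 16 wild type cells, so it was low in the Foxn1Lin male library alone.

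**Figure D5:**
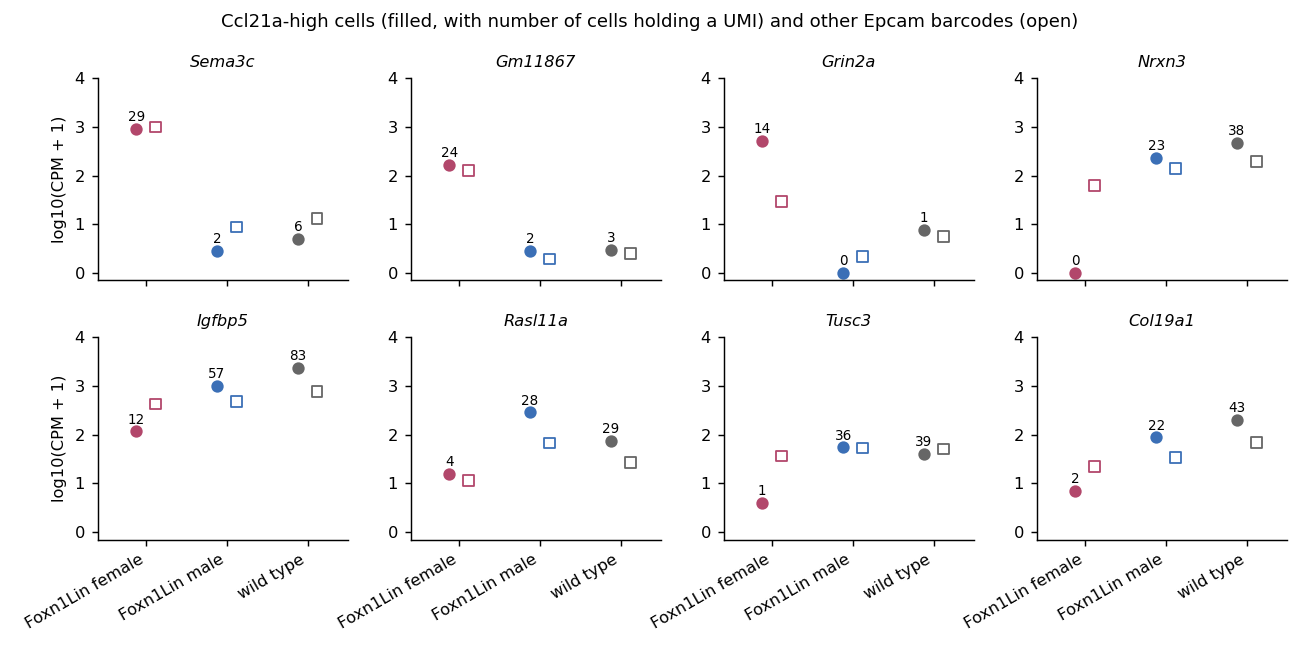
Levels of 8 genes as log10 of CPM plus 1 (vertical axis) in the Ccl21a-high cells (filled circles, with the number of cells holding a UMI) and other Epcam barcodes (open squares) of the 3 libraries. Sema3c and Gm11867 are high in both groups of the Foxn1Lin female library, Grin2a mainly in its Ccl21a-high cells, and Nrxn3 and Igfbp5 are lowest in those cells.

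Within the Ccl21a-high cells, 315 other listed genes were followed over 3 ranges of Ccl21a per cell (under 4000, 4000 to 10000 and at least 10000 CPM, with 8, 12 and 9 cells in the Foxn1Lin female library, 18, 22 and 24 in the Foxn1Lin male and 34, 42 and 22 in the wild type). C3 and Hoxa3 rose from range to range in every library and Fosb fell, 3 of 315 genes, and nothing is read from so few. Hoxa3 had 4 UMIs in the Foxn1Lin female library, and Ccl11 kept no such order.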

How the data were processed

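The files were UMI counts per gene and barcode as deposited; the authors made them with Cell Ranger 7.01 on GRCm38/mm10 with transgene sequences added. Each library also had a summary of metrics, from which the saturation percent was taken as deposited. The 3 libraries held 53366016, 33386621 and 61258534 UMIs in all and 337982, 1064714 and 1524604 in the Ccl21a-high cells. The choice of cells, gene lists and tests was made with earlier results of these data known.

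Counts were summed per library and cell group. They were tested with edgeR 4.0.16 (quasi-likelihood, TMM scaling, filterByExpr, library as block) in R 4.3.3, with Benjamini-Hochberg adjustment over all genes tested and a threshold of 0.05. The 10 genes of the rule and the transgenes were left out of the tests, in the last comparison also Cldn3 and Plet1. DESeq2 1.42.0 was an alternative. Because each group had 1 library, the libraries, which differ in sex and genotype, were the replicates of within-library contrasts. Fold changes are on the log2 scale. Named genes were those of 22 fixed lists and, among genes past the threshold with the same direction in 3 libraries and at least 50 UMIs in the higher group, the 15 largest and smallest changes against other Epcam barcodes and the 5 largest and smallest in the other comparisons, leaving out immunoglobulin, hemoglobin and ribosomal protein genes; between libraries, the 5 largest ratios each way and the listed genes past 4-fold. Dcn and the split by Ccl11 were added after values were seen. Intervals and floors (3 counts) cover counting error only.

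Doublets were kept in the main results. As an alternative, the 3.9% of barcodes with the highest Scrublet scores (scanpy 1.11.5) were removed, which took out 1 Ccl21a-high cell in each library. The tests were tried on simulated counts first. Empty droplets were uncalled barcodes around the UMI count at which uncalled barcodes held most UMIs (135 to 538, 24 to 95 and 24 to 95 UMIs). Other alternatives were other Ccl21a limits, thinned cells, no filter on low counts, no library block, comparison barcodes without cortical or other stromal genes, and leaving out each library.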

Additional observations from a re-analysis of the deposited data

Results flagged for a closer look

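In 5 listed genes the Ccl21a-high cells lay above the other Epcam barcodes in 1 library and below them in another, by at least 1 on the log2 scale each way. The difference between libraries was not tested, since each group has 1 library. Ccl2, a monocyte chemokine, had a log2 ratio of 1.91 in the Foxn1Lin female library and -1.53 in the Foxn1Lin male. Ly6d, a surface protein of lymphoid and epithelial cells, had 1.51 and -2.15 in the same libraries, and Notch3 had 1.94 and -1.32. Igfbp5 had 1.61 in the wild type library and -1.89 in the Foxn1Lin female. Ptn, the growth factor pleiotrophin, had 1.29 in the Foxn1Lin female library and -1.01 in the wild type.

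A second transgene, CreER-WPRE, which the mice of these libraries are not labelled to carry, had 2 UMIs in 2 of 64 Ccl21a-high cells of the Foxn1Lin male library and none in those of the other libraries. Empty droplets of that library had 0.292 CPM.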

How the results depend on the processing

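No paired analysis was possible because each group has 1 library, so no number pairs samples between groups; cell groups within a library were compared with the library as block, and "no library block" was tried instead. Of the tests of named genes under the alternatives, 6 turned direction against other Epcam barcodes, 212 lost the call, 175 gained one and 3778 kept it or stayed without it; against Aire cells 111 lost and 41 gained the call, and against Cldn3 Plet1 cells 161 and 80. Thinning each cell to 2000 UMIs gave 291 genes higher and 701 lower against other Epcam barcodes, 694 and 903 against Aire cells, and 264 and 333 against Cldn3 Plet1 cells. Without the block 286 genes were higher against other Epcam barcodes, and 333 were higher and 518 lower against Cldn3 Plet1 cells. Leaving out each library gave 423 to 586 higher and 1291 to 1739 lower against other Epcam barcodes, 1156 to 1516 and 1846 to 2529 against Aire cells, and 280 to 691 and 489 to 1039 against Cldn3 Plet1 cells, the lowest of each without the wild type library; without the Foxn1Lin male library the last were 440 and 659. DESeq2 called 549 and 1408, 1218 and 2270, and 461 and 730. Without comparison barcodes that hold cortical genes, Ctsl (1.26), Cxcl12 (0.46), Pax1 (0.91) and Pltp (1.15) turned to higher, as did Prss16 (0.92) by construction, since the filter itself uses Prss16, and without those that hold Pecam1 or Pdgfra UMIs Cdh5 turned to 0.21. The reporter share was 96.6% and 100% without thinning, 96.4% and 96.9% thinned to 4000 UMIs, and 68.8% with at least 2 UMIs in the Foxn1Lin male library. With doublets removed, and another random thinning, it was 64.3% in the Foxn1Lin female library. Its mean over all thinnings, an alternative chosen after seeing the data, was 77.9% and 87.1%. With at least 50 UMIs in the higher library, 35 and 53 genes were past 4-fold between the Foxn1Lin libraries and 18 and 88 between the Foxn1Lin male and wild type. TMM scaling moved the median log2 ratio of the latter by 0.16. Summed counts of 29 to 98 cells per library limit what can be seen of genes at a few CPM. Of the lists that hold genes at 0 UMIs, the median with those genes at their bound moved for the hematopoietic markers (-3.88), and not for chemokine, squamous, mature medullary, mimetic and mesothelial genes.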
